A study of Rattus norvegicus with 18 samples.

Results

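The genes described here encode the transferases that attach glutathione, glucuronic acid or sulfate to other molecules. They were chosen by symbol, as the table entries named *Gst* (classes a, k, m, o, p, t and z), *Mgst*, *Ugt* or *Sult* followed by a number. The rule found 44 of 22081 genes: 22 cytosolic *Gst*, 3 *Mgst*, 7 *Ugt* and 12 *Sult* genes. The class called cytosolic *Gst* here also holds *Gstk1*, whose enzyme is found in mitochondria and peroxisomes. Their RNA was measured by RNA-seq in the lungs of 18 male F344 rats, an inbred strain, with 3 rats in each of 6 groups. MWCNT-treated rats received MWNT-7, a rigid multiwalled carbon nanotube, by intratracheal instillation at 0.5 mg/kg every 4 weeks from 9 weeks of age, and control rats received the vehicle alone, saline with Tween 80. The rats were killed at Year 0.5, Year 1 or Year 2 of the experiment, and the RNA came from accessory lobe tissue without gross nodules. Total counts per rat ranged from 13297643 to 17868851 in control rats and from 14661589 to 21130757 in MWCNT-treated rats.

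Conjugation makes a reactive or fat-soluble compound more soluble in water, so that it can leave the cell. Glutathione S-transferases join the thiol of glutathione to electrophiles such as the aldehydes released from oxidized lipids. UDP-glucuronosyltransferases use UDP-glucuronic acid, and sulfotransferases use the sulfate donor PAPS. In the lung these enzymes are known mainly from the airway epithelium, and several of their genes are textbook targets of NRF2, which binds antioxidant response elements, or of the aryl hydrocarbon receptor, which binds xenobiotic response elements.

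The promoters of 4 genes on which the results turn are shown, because *Ugt1a6* rose and *Gsta4* and *Gstm7* fell in MWCNT-treated rats, and *Gstp1* was the most abundant of the 44 genes in control rats. Each sequence is the 250 bases before the RefSeq transcription start, 5′ to 3′ along the gene, from the GRCr8 build. Capitals mark matches, on either strand, to the antioxidant response element TGACNNNGC or to the core of the xenobiotic response element, GCGTG, which reads CACGC on the other strand. The 2 motifs share no bases in these windows. The windows are chr9:96194768-96195017 on the plus strand for *Ugt1a6*, chr8:87947015-87947264 on the plus strand for *Gsta4*, chr2:198260320-198260569 on the minus strand for *Gstm7*, and chr1:210769706-210769955 on the minus strand for *Gstp1*.
Ugt1a6: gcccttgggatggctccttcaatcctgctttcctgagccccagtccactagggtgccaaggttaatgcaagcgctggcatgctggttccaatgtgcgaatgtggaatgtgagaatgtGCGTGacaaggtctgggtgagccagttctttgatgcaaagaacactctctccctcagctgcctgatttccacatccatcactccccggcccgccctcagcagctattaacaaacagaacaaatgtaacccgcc
Gsta4: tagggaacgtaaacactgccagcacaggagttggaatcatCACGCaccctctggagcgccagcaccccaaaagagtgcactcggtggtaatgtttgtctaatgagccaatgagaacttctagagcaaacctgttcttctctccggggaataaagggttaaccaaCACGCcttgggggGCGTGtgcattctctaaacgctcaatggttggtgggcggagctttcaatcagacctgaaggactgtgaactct
Gstm7: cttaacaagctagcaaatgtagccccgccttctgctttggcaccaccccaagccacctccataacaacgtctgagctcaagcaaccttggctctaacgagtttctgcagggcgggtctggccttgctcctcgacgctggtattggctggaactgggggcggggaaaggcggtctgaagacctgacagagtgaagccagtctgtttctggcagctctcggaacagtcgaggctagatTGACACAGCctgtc
Gstp1: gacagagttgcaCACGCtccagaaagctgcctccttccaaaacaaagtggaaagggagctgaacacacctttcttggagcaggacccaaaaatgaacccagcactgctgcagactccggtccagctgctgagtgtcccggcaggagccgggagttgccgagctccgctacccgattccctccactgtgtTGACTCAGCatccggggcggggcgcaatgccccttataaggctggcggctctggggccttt

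*Gstp1* and *Gstm7* held 1 antioxidant response element each, beginning 61 and 14 bases before the start. *Gsta4* held 3 matches to the xenobiotic core, beginning 210, 86 and 73 bases before the start, *Ugt1a6* held 1 at 133 bases, and *Gstp1* held 1 at 238 bases and another beginning at base 31 after the start, outside the printed stretch. Over windows of 250 bases before to 50 bases after the start, the antioxidant response element was present in 4038 of 33469 RefSeq promoters (12.1%) and the xenobiotic core in 9939 of them (29.7%). A promoter of the same symbol was found for 37 of the 44 genes. Among the genes that passed the count filter, 24 starts were found, of which 6 (25%) held the antioxidant response element and 10 (41.7%) the xenobiotic core. These matches describe letters in the windows, and binding was not measured.

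In control lungs the transcripts of this group were dominated by a few glutathione S-transferases. Levels are given as TPM, a share of the library corrected for transcript length, so that genes can be compared. The 44 genes summed to 1951 to 2209 TPM in control rats and to 1471 to 1742 TPM in MWCNT-treated rats, and the ranges did not overlap. *Gstp1*, the pi class enzyme, was the most abundant, with 498, 536 and 491 TPM in the 3 control rats at Year 0.5. It was followed by *Mgst1*, a membrane-bound enzyme with glutathione transferase and peroxidase activity, at 268, 280 and 245 TPM, and by *Sult1a1*, which sulfates phenols, at 209, 182 and 213 TPM. *Gsta1* was at 177, 163 and 196 TPM in these rats and *Gsta4* at 150, 175 and 140 TPM. The most abundant *Ugt* gene, *Ugt1a6*, was at only 6.83, 6.51 and 7.55 TPM. At Year 0.5 *Gstp1*, *Mgst1* and *Sult1a1* did not overlap between control rats, *Sult1a1* overlapped with *Gsta1*, and *Gsta1* overlapped with *Gsta4*. The order below *Gstp1* did not hold in each year. In control rats of Year 1, *Sult1a1* (232, 308 and 333 TPM) overlapped with *Mgst1* (262, 276 and 280 TPM).

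The count filter kept 25 of the 44 genes at Years 0.5 and 1 and 24 at Year 2, when *Ugt8* did not pass. By class, 16 of 22 cytosolic *Gst*, all 3 *Mgst*, 4 of 12 *Sult* and 2 of 7 *Ugt* genes passed in at least 1 year. The other 19 had at most 10 counts in any rat and at most 43 counts over the 18 rats. Of these, *Gsta2*, *Sult2a1*, *Ugt2b15*, *Ugt2b35* and *Ugt3a2* had no count in any rat, which allows up to 0.142 to 0.226 CPM in a rat (3 counts of its total). The remaining 14 were *Gsta5*, *Gstm3l*, *Gstm6*, *Gstm6l*, *Gstt4*, *Sult1b1*, *Sult1c2*, *Sult1c3*, *Sult1d1*, *Sult1e1*, *Sult4a1*, *Sult6b1*, *Ugt2a3* and *Ugt2b10*. How the *Sult1c* names, *Sult1c2* included, correspond to the copies in that cluster was not resolved (see the closing section). *Sult1e1*, the estrogen sulfotransferase, had 6 counts over all rats. Enzymes known mainly from the liver, such as *Sult2a1* and the *Ugt2b* genes, were thus at or near 0 in every group. Of the hepatocyte markers, *Alb* was at no more than 0.375 TPM, whereas *Serpina1* and *Cyp2e1* reached 35.5 and 38.4 TPM in control rats.

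The comparison of MWCNT-treated with control rats at each time point asked which transferases changed during exposure. At Year 0.5, 17 of the 25 genes tested passed an FDR of 0.05 (all genes 38.8%), 5 of them upregulated and 12 downregulated. Over all genes tested, 20.2% were upregulated and 18.6% downregulated by this rule, so the share of upregulated transferases (20%) was near that of all genes and the share of downregulated transferases (48%) was above it. At Year 1, 13 of 25 passed (all genes 41.2%), with 5 upregulated and 8 downregulated (all genes 21.6% and 19.6%). Scaling by library size only gave 4 and 11. That scaling also lowered the median of all genes, and its shares of all genes are not given here. At Year 2, 16 of 24 passed (all genes 49.2%), with 5 upregulated and 11 downregulated (all genes 25.2% and 24%). The median log2 fold change of the transferases tested was -0.21, -0.24 and -0.34 at Years 0.5, 1 and 2, against -0.02, 0.00 and -0.01 for all genes. All 3 MWCNT-treated rats lay above all 3 control rats in normalized counts for 5, 5 and 5 transferases at Years 0.5, 1 and 2 (all genes 26.2%, 28.5% and 30.4%). They lay below them for 14, 11 and 12 (all genes 25.6%, 26.4% and 29.4%). No transferase passed the FDR in opposite directions in different years. In whole tissue, fewer cells of a type and less RNA per cell cannot be told apart.

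**Figure D1:**
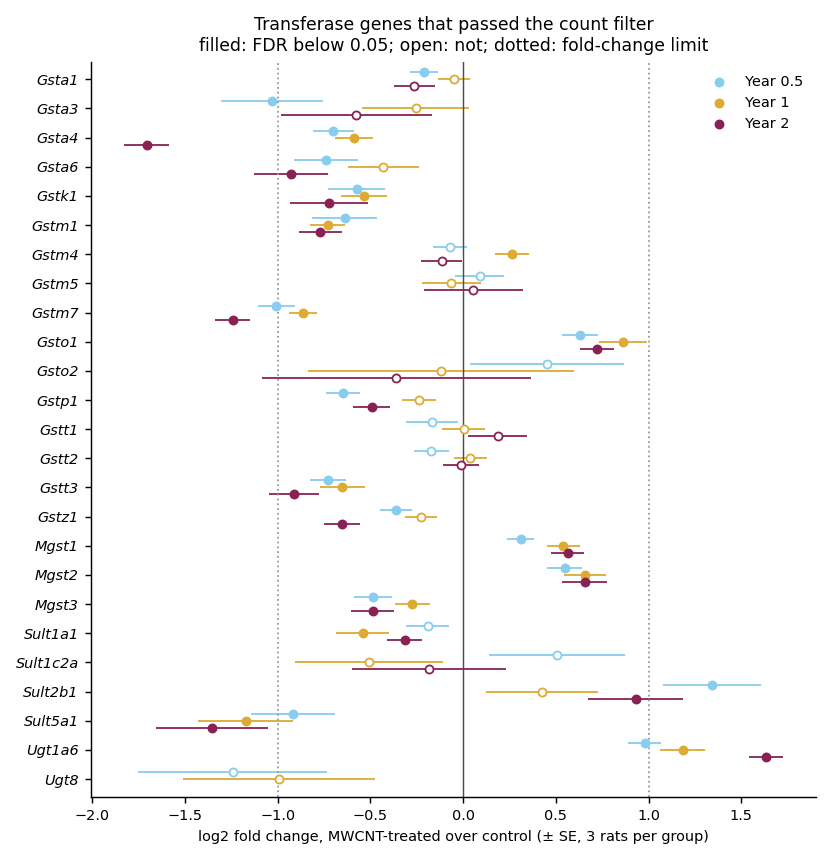
Log2 fold change (x axis, MWCNT-treated over control, ± SE, 3 rats per group) of the 25 transferase genes that passed the count filter, with 1 colour per year. Filled points passed an FDR of 0.05 and dotted lines mark a log2 fold change of 1. *Ugt1a6* lay furthest to the right at Years 1 and 2, and *Gsta4* furthest to the left at Year 2, at -1.71.

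The 4 genes *Ugt1a6*, *Gsto1*, *Mgst1* and *Mgst2* were upregulated at an FDR below 0.05 at all 3 time points, and 7, *Gsta4*, *Gstm7*, *Gstm1*, *Gstt3*, *Gstk1*, *Mgst3* and *Sult5a1*, were downregulated at all 3. Of all genes tested in every year, 14.8% were upregulated and 12.2% downregulated at all 3 time points, and 24 transferases were tested in every year. A further 8 passed in 1 or 2 years: *Gstp1*, *Gsta6*, *Gstz1* and *Sult2b1* at Years 0.5 and 2, *Sult1a1* at Years 1 and 2, *Gsta1* and *Gsta3* at Year 0.5, and *Gstm4* at Year 1. The remaining 6, *Gstm5*, *Gsto2*, *Gstt1*, *Gstt2*, *Sult1c2a* and *Ugt8*, did not pass in any year.

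Few transferases were differentially expressed genes (DEGs), for which the change also had to exceed 1 on the log2 scale in either direction. They were *Gsta3*, *Gstm7* and *Sult2b1* at Year 0.5 (3 of 25, all genes 9.1%), *Sult5a1* and *Ugt1a6* at Year 1 (2 of 25, all genes 10.2%), and *Gsta4*, *Gstm7*, *Sult5a1* and *Ugt1a6* at Year 2 (4 of 24, all genes 16.4%). The shares, 12%, 8% and 16.7%, were near those of all genes. Just outside the limit, among those passing the FDR, were *Ugt1a6* (0.98) and *Sult5a1* (-0.92) at Year 0.5. At Year 2, *Sult2b1* (0.93), *Gsta6* (-0.93) and *Gstt3* (-0.91) also fell just short of the limit. *Gstm7* at Year 0.5 lay just inside it (-1.01), and was not a DEG with DESeq2, without MWCNT replicate 2 or without control replicate 1. The counts moved when single rats were left out: without control replicate 1 only *Sult2b1* was called at Year 0.5, without MWCNT replicate 1 only *Ugt1a6* was called at Year 1, and without MWCNT replicate 2 there were 8 DEGs at Year 2.

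The summed levels of the classes moved apart. The cytosolic *Gst* genes summed to 1404, 1393 and 1410 TPM on average in control rats at Years 0.5, 1 and 2, and to 904, 984 and 844 TPM in MWCNT-treated rats. The ratio of MWCNT-treated to control means was 0.644 ± 0.0589, 0.706 ± 0.0306 and 0.599 ± 0.0626 (n = 3 per group). For these ratios of summed TPM, here and by family, the ± value was propagated from the SDs of the 2 groups. The TPM scale itself was lower in MWCNT-treated rats for the median gene, by a ratio of 0.892, 0.850 and 0.854 at the 3 time points. Relative to the median gene, the cytosolic *Gst* ratio was 0.722, 0.831 and 0.701. The sum of the 3 *Mgst* genes went the other way, with ratios of 1.08 ± 0.0711, 1.17 ± 0.0730 and 1.18 ± 0.0968, and 1.21, 1.38 and 1.38 relative to the median gene. Without *Mgst1* the treatments overlapped in every year, and *Mgst3* by itself fell. The *Sult* sum, of which *Sult1a1* made up 93.7% in control rats at Year 0.5, had ratios of 0.789 ± 0.140, 0.579 ± 0.133 and 0.685 ± 0.0715. The *Ugt* sum, nearly all *Ugt1a6*, had ratios of 1.69 ± 0.182, 1.81 ± 0.238 and 2.59 ± 0.386. The ranges of the 2 treatments did not overlap within any year for cytosolic *Gst* and *Ugt*, and they overlapped at Year 0.5 for *Mgst* and *Sult*.

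**Figure D2:**
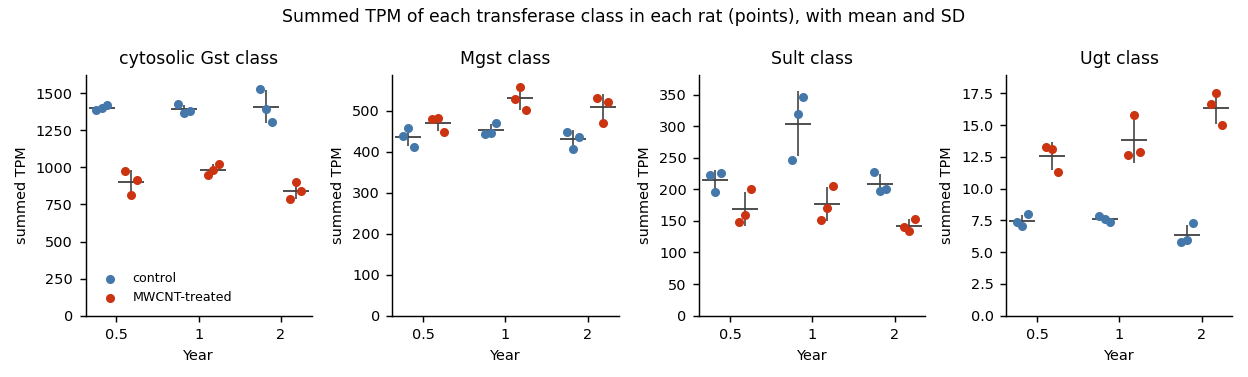
Summed TPM (y axis, from 0) of each transferase class in every rat by year, with control rats in blue, MWCNT-treated rats in red, and the mean and SD of 3 rats as bars. The cytosolic *Gst* sums lay lower and the *Ugt* sums higher in all MWCNT-treated rats of each year.

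Within the cytosolic enzymes, the alpha, mu, pi, theta, kappa and zeta families were lower and the omega family was higher. Summed *Gsta* TPM had ratios of 0.670 ± 0.0550, 0.711 ± 0.0404 and 0.504 ± 0.0573, and summed *Gstm* TPM had ratios of 0.571 ± 0.0929, 0.548 ± 0.0517 and 0.502 ± 0.0622. Summed theta TPM was lower by less, at 0.718, 0.752 and 0.742, and relative to the median gene it stood at 0.804, 0.885 and 0.869. Of the theta genes tested only *Gstt3* passed the FDR, and *Gstt1* and *Gstt2* stayed between -0.17 and 0.19 on the log2 scale. The omega ratio was 1.40 ± 0.157, 1.53 ± 0.206 and 1.40 ± 0.0569, and it rested on *Gsto1*. Kappa and zeta ratios were 0.611, 0.585 and 0.524 for *Gstk1* and 0.704, 0.728 and 0.548 for *Gstz1*. These sums are descriptions and were not tested.

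The largest fall was that of *Gsta4* at Year 2, an alpha class enzyme that prefers 4-hydroxynonenal and similar products of lipid peroxidation (chromosome 8, 85497557 to 85518879, plus strand, Rnor_6.0). Its levels in control rats were 150, 175 and 140 TPM at Year 0.5, 164, 131 and 143 at Year 1, and 159, 161 and 139 at Year 2. In MWCNT-treated rats they were 93.8, 74.5 and 91.3 TPM, then 85, 76.6 and 86.6, and then 32.7, 45.5 and 43.3. Every MWCNT-treated rat lay below every control rat, and the rats of Year 2 lay below all other MWCNT-treated rats. The log2 fold change was -0.70 ± 0.11 (SE, FDR = 0.00124) at Year 0.5, -0.59 ± 0.10 (FDR = 0.00207) at Year 1 and -1.71 ± 0.12 (FDR = 6.73e-06) at Year 2.

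*Gsta4* was the only transferase whose response to MWCNT differed between time points in the test over all 3 (FDR = 0.0118), among 25 tested and 0.667% of all genes. With DESeq2, *Ugt1a6* passed this test as well. The log2 fold change of *Gsta4* was lower at Year 2 than at Year 0.5 by -1.0 ± 0.17 (FDR = 0.011) and lower than at Year 1 by -1.10 ± 0.18 (FDR = 0.0155), while Years 0.5 and 1 differed by 0.10 ± 0.17 (FDR = 0.885). Leaving out any 1 of the 18 rats gave differences between Years 2 and 0.5 of -1.10 to -0.88, each with an FDR of at most 0.0357.

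*Gsta1*, an alpha class enzyme at a like level in control rats, had smaller fold changes. Its levels at Year 2 were 197, 158 and 157 TPM in control rats and 122, 126 and 120 TPM in MWCNT-treated rats. The log2 fold changes were -0.21 ± 0.07 (FDR = 0.0496), -0.05 ± 0.09 (FDR = 0.676) and -0.26 ± 0.11 (FDR = 0.0753), so only Year 0.5 passed, and that call was kept in 1 of 6 fits with a rat left out. The ratio of *Gsta4* to *Gsta1* within a rat was 0.880 ± 0.183 in control and 0.620 ± 0.0473 in MWCNT-treated rats at Year 0.5, 0.726 ± 0.124 and 0.498 ± 0.0432 at Year 1, and 0.906 ± 0.108 and 0.330 ± 0.0538 at Year 2 (SD, n = 3). The ranges of the ratio did not overlap in any year. *Gsta6* was lower at Year 0.5 (-0.74 ± 0.17) and Year 2 (-0.93 ± 0.20). *Gsta3*, at 5.14 to 6.35 TPM in control rats of Year 2, was a DEG at Year 0.5 (-1.03 ± 0.28, FDR = 0.0169) but passed the FDR in only 2 of 6 fits with a rat left out. Its entry overlaps that of *Gsta1* on the opposite strand, and the counting is not stated to use strand.

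**Figure D3:**
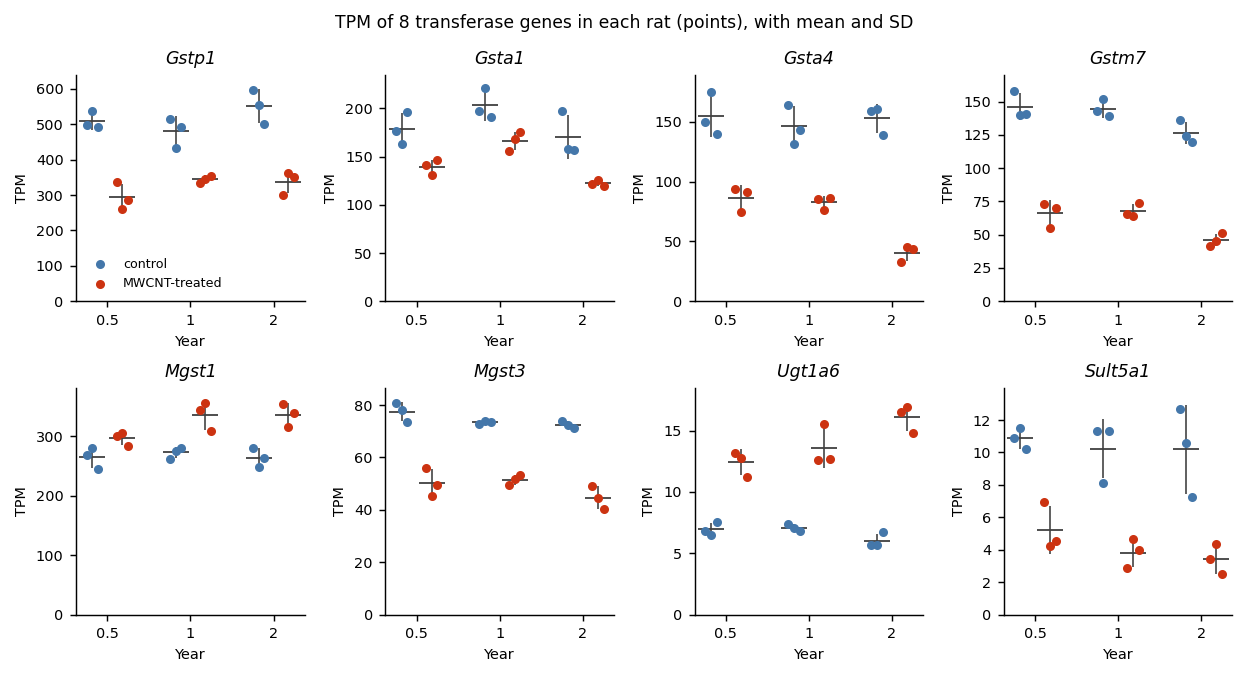
TPM (y axis, from 0) of 8 transferase genes in every rat by year, with control rats in blue, MWCNT-treated rats in red, and the mean and SD of 3 rats as bars. *Gstp1*, *Gsta1*, *Gsta4*, *Gstm7*, *Mgst3* and *Sult5a1* lay lower and *Mgst1* and *Ugt1a6* higher in TPM in all MWCNT-treated rats of each year. On the normalized count scale of the tests, *Gstp1* and *Gsta1* overlapped at Year 1.

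Among the mu class genes, *Gstm7* and *Gstm1* fell and *Gstm4* and *Gstm5* did not. *Gstm7* (chromosome 2, 210720704 to 210782856, minus strand, Rnor_6.0) was at 158, 140 and 141 TPM in control rats of Year 0.5 and at 73, 55 and 70.2 TPM in MWCNT-treated rats. At Year 2 it was at 136, 124 and 120 TPM in control rats and at 41.8, 45.5 and 51 TPM in MWCNT-treated rats. No rat of one treatment reached the range of the other. Its log2 fold change was -1.01 ± 0.10 (FDR = 0.000128), -0.86 ± 0.08 (FDR = 4.88e-05) and -1.24 ± 0.09 (FDR = 9.02e-06). *Gstm1* changed by -0.64 ± 0.17, -0.73 ± 0.09 and -0.77 ± 0.12, and its call at Year 0.5 was kept in 3 of 6 fits with a rat left out. *Gstm5* stayed between -0.06 and 0.09. *Gstm4* was between -0.12 and 0.26, and its call at Year 1 (FDR = 0.0453) was lost in every fit with a rat left out. The *Gstm7* entry contains the smaller entries of *Gstm6* and *Gstm3l* on the same strand, which had 35 and 10 counts over all rats against 28116 for *Gstm7*.

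*Gstp1*, known for its high level in airway epithelium, was lower at Years 0.5 and 2. In control rats it was at 498, 536 and 491 TPM at Year 0.5, 515, 432 and 492 at Year 1, and 597, 554 and 502 at Year 2. In MWCNT-treated rats it was at 336, 260 and 285 TPM, then 335, 346 and 355, and then 300, 361 and 352. The TPM ranges did not overlap in any year. Its log2 fold change was -0.65 ± 0.09 (FDR = 0.000734) at Year 0.5, -0.24 ± 0.09 (FDR = 0.0676) at Year 1 and -0.49 ± 0.10 (FDR = 0.00276) at Year 2, and on the normalized count scale of this test the rats overlapped at Year 1.

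Of the smaller *Gst* families, *Gstt3* fell by 0.73, 0.65 and 0.91 on the log2 scale at Years 0.5, 1 and 2, with FDR values of 0.000551, 0.00276 and 0.000514. The other theta genes, *Gstt1* and *Gstt2*, stayed between -0.17 and 0.19 and passed in no year. *Gstk1*, the kappa enzyme of mitochondria and peroxisomes, changed by -0.57, -0.53 and -0.72, and its calls at Years 0.5 and 2 were kept in 3 and 5 of 6 fits with a rat left out. *Gstz1*, which also acts as maleylacetoacetate isomerase in tyrosine breakdown, changed by -0.36 at Year 0.5 and -0.65 at Year 2, and at Year 1 its value was -0.23 (FDR = 0.0654). *Gsto1*, an omega class enzyme that reduces dehydroascorbate, was the only cytosolic *Gst* gene upregulated at all 3 time points. It was at 58.5, 52 and 53.9 TPM in control rats of Year 2 and at 79.3, 78.4 and 75.7 TPM in MWCNT-treated rats, with log2 fold changes of 0.63 ± 0.10, 0.86 ± 0.13 and 0.72 ± 0.09 (FDR = 0.00115, 0.000956 and 0.000197). *Gsto2* shares its strand and part of its span with *Gsto1* and had 313 counts over all rats against 9502.

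The 3 microsomal genes split. *Mgst1* was at 268, 280 and 245 TPM in control rats of Year 0.5 and at 301, 305 and 283 TPM in MWCNT-treated rats, and at Year 2 it was at 280, 249 and 263 against 354, 315 and 339 TPM. All MWCNT-treated rats lay above all control rats of their year. The log2 fold change was 0.31 ± 0.07 (FDR = 0.00936), 0.54 ± 0.09 (FDR = 0.00161) and 0.56 ± 0.09 (FDR = 0.000727). *Mgst2*, which can also form leukotriene C4, rose by 0.55 ± 0.10, 0.65 ± 0.11 and 0.66 ± 0.12. *Mgst3* fell by 0.49, 0.27 and 0.49 on the log2 scale, from 74, 72.2 and 71.2 TPM in control rats of Year 2 to 48.9, 44.6 and 40.2 TPM, although its call at Year 1 (FDR = 0.042) was kept in only 1 of 6 fits with a rat left out.

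The make-up of the group changed accordingly. Of the summed TPM of the 44 genes, the *Mgst* genes held 21.1% ± 1.14, 21.0% ± 0.301 and 21.0% ± 1.18 in control rats at Years 0.5, 1 and 2, and 30.3% ± 2.23, 31.1% ± 1.99 and 33.6% ± 2.61 in MWCNT-treated rats (SD, n = 3). The ratio of *Mgst1* to *Mgst3* within a rat was 3.41 ± 0.151, 3.72 ± 0.108 and 3.64 ± 0.172 in control rats and 5.96 ± 0.698, 6.54 ± 0.649 and 7.58 ± 0.741 in MWCNT-treated rats. The ratio of *Mgst1* to *Gstp1* at Year 0.5 was 0.519 ± 0.0196 in control rats and 1.02 ± 0.139 in MWCNT-treated rats. These ratios do not depend on the scaling of the library, since both genes were read in the same rat.

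**Figure D4:**
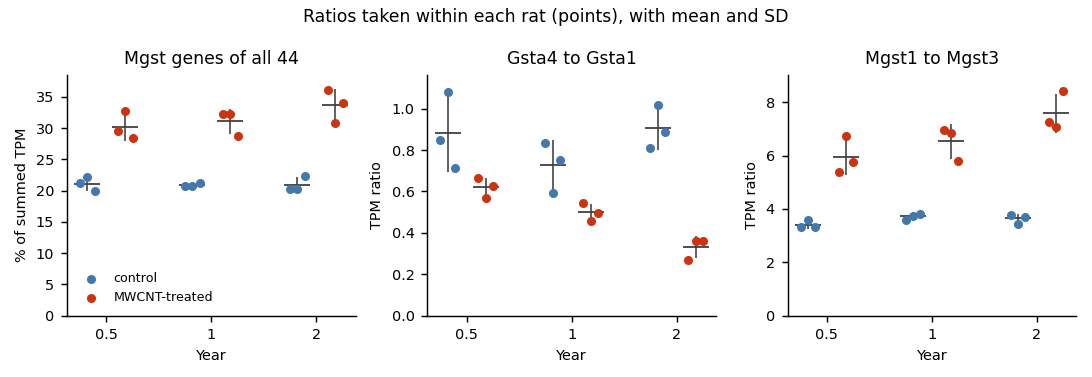
Share of *Mgst* genes in the summed TPM of the 44 genes (%), and TPM ratios of *Gsta4* to *Gsta1* and of *Mgst1* to *Mgst3*, in every rat by year, with control rats in blue, MWCNT-treated rats in red, and the mean and SD of 3 rats as bars. In each year the treatments did not overlap in any of the 3 measures, and the *Gsta4* ratio was lowest at Year 2, at 0.330 on average.

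*Ugt1a6*, which glucuronidates small planar phenols and is a textbook target of the aryl hydrocarbon receptor and NRF2, rose in each year (chromosome 9, 95161157 to 95302822, plus strand, Rnor_6.0). In control rats it was at 6.83, 6.51 and 7.55 TPM at Year 0.5, 7.37, 7.08 and 6.8 at Year 1, and 5.7, 5.66 and 6.69 at Year 2. In MWCNT-treated rats it was at 13.2, 12.8 and 11.2 TPM, then 12.6, 15.5 and 12.7, and then 16.5, 16.9 and 14.8. The 2 treatments were well separated in each year. On the log2 scale the rise was 0.98 ± 0.09 (FDR = 8.04e-05), 1.18 ± 0.12 (FDR = 0.000128) and 1.63 ± 0.09 (FDR = 2.15e-06), which is 1.97-fold, 2.27-fold and 3.11-fold. The response was larger at Year 2 than at Year 0.5 by 0.66 ± 0.15 (FDR = 0.044, all genes 1.31%), a difference that passed in 7 of 18 fits with a rat left out, and the test over all 3 time points did not pass (FDR = 0.0833).

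The deposited *Ugt1a6* entry spans the *Ugt1a* locus, in which several first exons share the same later exons, and it is the only *Ugt1a* entry of the table. RefSeq lists 8 protein-coding *Ugt1a* genes, so the counts cannot be assigned to *Ugt1a6* alone, and the promoter printed here is that of 1 of these first exons. *Ugt8*, which forms galactosylceramide with UDP-galactose and not a glucuronide, was at 0.417 to 0.525 TPM in control rats of Year 0.5 and at 0.0691 to 0.306 TPM in MWCNT-treated rats, and did not pass (FDR = 0.0828).

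The sulfotransferases were led by *Sult1a1*. Its control levels of Year 1, 232, 308 and 333 TPM, were the highest of the series and the most spread, against 146, 164 and 198 TPM in MWCNT-treated rats of that year. Its log2 fold change was -0.19 ± 0.11 (FDR = 0.219), -0.54 ± 0.14 (FDR = 0.0147) and -0.32 ± 0.09 (FDR = 0.0202), and the calls at Years 1 and 2 were kept in 4 and 3 of 6 fits with a rat left out. *Sult5a1* was at 10.9, 11.5 and 10.2 TPM in control rats of Year 0.5 and 6.94, 4.21 and 4.55 TPM in MWCNT-treated rats, and at Year 2 at 12.7, 10.6 and 7.26 against 3.4, 4.38 and 2.52 TPM. The 2 treatments did not overlap in any year. The log2 fold change was -0.92 ± 0.23 (FDR = 0.0118), -1.17 ± 0.26 (FDR = 0.00645) and -1.35 ± 0.30 (FDR = 0.00508), and the call at Year 0.5 was kept in 5 of 6 fits with a rat left out.

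*Sult2b1*, which sulfates cholesterol, rose at Year 0.5, from 1.1, 0.945 and 1.68 TPM in control rats to 2.6, 2.72 and 3.23 TPM. On the log2 scale the difference was 1.34 ± 0.27 (FDR = 0.00413), then 0.42 ± 0.30 (FDR = 0.287) at Year 1 and 0.93 ± 0.26 (FDR = 0.0142) at Year 2, a call kept in 5 of 6 fits with a rat left out. At Year 1 the rats overlapped, with 1.84, 2 and 1.69 TPM in control rats and 2.78, 1.18 and 2.42 TPM in MWCNT-treated rats. These levels were low, and a short part of the entry overlaps *Fam83e* on the opposite strand. *Sult1c2a* was at 0.469 to 1.62 TPM over all rats and passed in no year.

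Years 2 and 0.5 were also compared within each treatment. In MWCNT-treated rats, time goes together with the number of instillations in this comparison. In control rats, none of the 25 transferases differed between Years 2 and 0.5 at an FDR below 0.05 by the quasi-likelihood test (all genes 6.65%), and 1, *Gstt2*, had an unadjusted p below 0.05. DESeq2 called none either. With the limit on the fold change, 0.633% of all genes were called in control rats and 2.34% in MWCNT-treated rats. In MWCNT-treated rats, *Gsta4* was the 1 transferase called, at -1.01 ± 0.13 (FDR = 0.000106), and it fell short of the fold limit without MWCNT replicate 1 or 3 of Year 0.5 or without MWCNT replicate 1 of Year 2. By the FDR alone, *Gstm7* (-0.43 ± 0.10), *Ugt1a6* (0.46 ± 0.11) and *Mgst1* (0.27 ± 0.09) also differed. This makes 4 of 25 (16%), near the share of all genes (13.5%).

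The genes that supply the cosubstrates were compared in the same fits. Over all genes, 20.2%, 21.6% and 25.2% were upregulated and 18.6%, 19.6% and 24% downregulated at Years 0.5, 1 and 2. The counts of this and the following lists, cell type markers included, are to be read beside these shares. No list was tested as a set. For glutathione, 21 genes were tested, of which 6, 8 and 8 were upregulated and 5, 1 and 3 downregulated at an FDR below 0.05 at Years 0.5, 1 and 2, with medians of -0.02, 0.11 and 0.11. *Slc7a11*, the cystine importer, rose by 3.43 ± 0.41, 2.07 ± 0.19 and 3.69 ± 0.37 on the log2 scale. *Ptges* rose by 2.06, 1.78 and 2.29, and *Chac1* by 1.24, 1.40 and 1.21. *Gpx1*, the main cytosolic glutathione peroxidase, rose by 0.88 ± 0.09, 1.13 ± 0.13 and 1.20 ± 0.08, and *Gss*, the second enzyme of glutathione synthesis, by 0.45, 0.55 and 0.66. *Gpx3*, the most abundant gene of the list in control rats, changed by -0.50 ± 0.07, -0.34 ± 0.08 and -0.37 ± 0.08. The other downregulated genes were *Slc3a2*, *Gpx4*, *Gpx8* and *Hpgds* at Year 0.5, and *Gpx4* and *Gpx7* at Year 2. The subunits of the first enzyme, *Gclc* and *Gclm*, lay between -0.22 and 0.11 and passed in no year.

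For UDP-glucuronic acid, 8 genes were tested, of which 6, 4 and 5 were upregulated and 1, 0 and 1 downregulated, with medians of 0.31, 0.24 and 0.44. *Ugdh*, which makes UDP-glucuronic acid, rose by 0.26, 0.28 and 0.28. *Uxs1*, which turns UDP-glucuronic acid into UDP-xylose, rose by 0.36, 0.52 and 0.70, and *Gusb*, the lysosomal enzyme that cleaves glucuronides, rose by 1.28 ± 0.09, 1.45 ± 0.10 and 1.76 ± 0.07. For sulfate, 3, 4 and 4 of 13 genes were upregulated and 1, 0 and 1 downregulated, with medians of 0.04, 0.14 and 0.13. The PAPS synthases *Papss1* and *Papss2* lay between -0.21 and 0.03 and passed in no year, and *Arsb*, a lysosomal sulfatase, rose by 0.87, 0.88 and 1.09.

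Of 8 genes for export of conjugates, 3, 2 and 4 were upregulated and 1, 1 and 2 downregulated, with medians of 0.27, 0.10 and 0.27. *Abcc5* rose by 0.61, 0.45 and 0.75, *Abcc1*, which exports glutathione conjugates, rose at Years 0.5 and 2 (0.41 and 0.64), and *Abcc6* changed by -0.88, -0.79 and -1.53. Among the sensors and regulators, 13, 13 and 14 genes were tested, of which 3, 3 and 5 were upregulated and 2, 1 and 4 downregulated, with medians of -0.0021, 0.02 and -0.02. *Nfe2l2*, which encodes NRF2, was at 0.19, 0.26 and 0.27 and passed at Years 1 and 2, *Ahr* changed by -0.54 ± 0.09 at Year 2, and *Esr1*, an estrogen receptor, rose by 2.29, 3.17 and 3.93. Of 10 other reference targets of NRF2 or the aryl hydrocarbon receptor, 6, 6 and 5 were upregulated and 0, 2 and 2 downregulated, with medians of 0.27, 0.49 and 0.39. *Hmox1* rose by 1.54, 1.46 and 1.94 and *Akr1b8* by 0.78, 1.06 and 1.40, whereas *Aldh3a1* changed by -1.16 at Year 1 and -2.27 at Year 2. *Nqo1* rose at Years 0.5 and 1 (0.22 and 0.43) and was at -0.04 at Year 2. *Cyp1b1* changed by -0.905 at Year 1 and -0.72 at Year 2, and *Tiparp* passed in no year. *Cyp1a1* was at no more than 0.128 TPM in any rat and was not tested. *Gclm* is in this list and in the glutathione list.

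**Figure D5:**
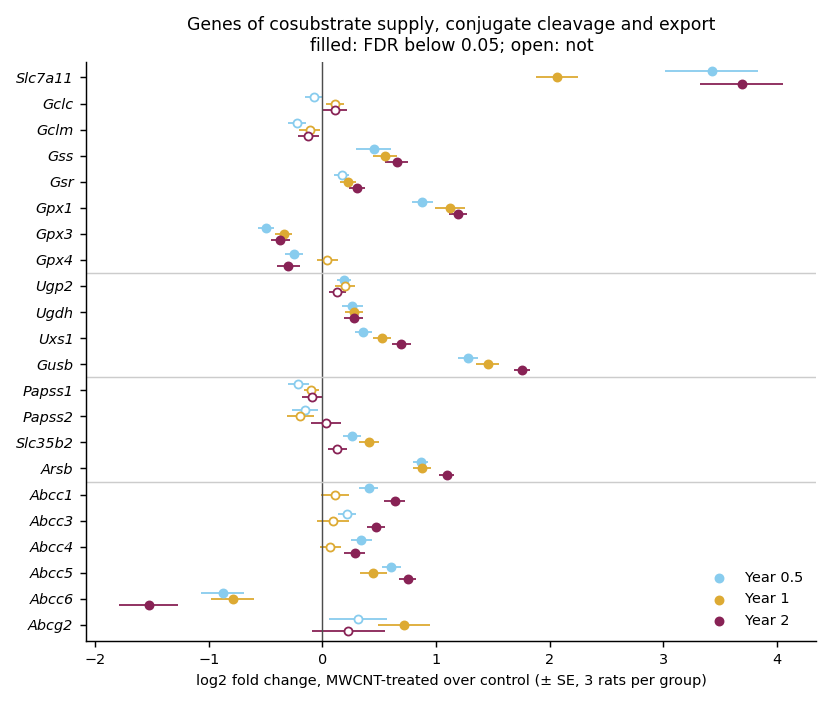
Log2 fold change (x axis, MWCNT-treated over control, ± SE, 3 rats per group) of genes for glutathione (top block), UDP-glucuronic acid and glucuronides, sulfate, and export (bottom block), with 1 colour per year and filled points for an FDR below 0.05. *Slc7a11* and *Gusb* lay furthest to the right of their blocks in each year, and *Gclc*, *Gclm*, *Papss1* and *Papss2* passed in no year.

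Markers of several lung cell types moved with treatment, and their part in the transferase results was not tested. Ciliated cell markers were downregulated in 4, 6 and 6 of 6 genes at Years 0.5, 1 and 2 and summed to 1156 to 1407 TPM in control and 235 to 546 TPM in MWCNT-treated rats. Club cell markers were downregulated in 4, 4 and 3 of 7 genes, with *Cldn10* upregulated in each year and *Bpifa1* at Year 2, and summed to 18791 to 33711 against 10901 to 16093 TPM. Endothelial markers fell in 6 of 6 genes in each year (2226 to 2843 against 750 to 1585 TPM) and alveolar type 1 markers in 7, 6 and 7 of 7 (5958 to 6981 against 2709 to 4371 TPM). Macrophage markers rose in 7 of 7 genes in each year (557 to 706 against 1820 to 3368 TPM) and alveolar type 2 markers in 7, 6 and 7 of 7 (27956 to 36986 against 51419 to 61124 TPM). Fibroblast markers fell in 4 of 6 genes in each year, and *Col1a1* rose at Years 0.5 and 2.

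Other tissues gave low or uneven signals. Of the adipocyte list only *Fabp4* and *Cfd* rose, and the defining *Adipoq*, *Plin1*, *Cidec* and *Lep* stayed at or below 2.02 TPM in every rat. Heart muscle markers ranged from 68.2 to 545 TPM between control rats and from 14.3 to 169 TPM between MWCNT-treated rats, and were downregulated in 4, 1 and 1 of 5 genes tested. Of the hepatocyte list *Ttr* was detected in 3 rats, and *Cyp2e1* and *Serpina1*, which lung also expresses, were the 2 genes tested.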

How the data were processed

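RNA-seq of lung tissue from 18 rats was analysed, with groups taken from the sample labels. The authors prepared libraries from total RNA with the NEBNext Ultra II RNA kit and processed the reads with CLC Genomics Workbench. Per the labels the genome build was Rnor_6.0. The deposited tables hold, for each gene and rat, the total count of reads, as whole numbers without normalization, and the TPM, which the authors scaled for gene length and library total. They also hold RPKM, TMM-adjusted CPM and the authors' comparison columns (group maxima, fold changes and p-values), which were not used. How reads that map to several places were counted, and whether strand was used, is not given in the sources used here, so near-identical copies and overlapping genes are uncertain.

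The tests ran in edgeR 4.0.16 under R 4.3.3. For each time point, genes were filtered with filterByExpr (minimum count 10, minimum total count 15), TMM factors were applied, and the 6 rats were compared by the quasi-likelihood test with Benjamini-Hochberg adjustment over all genes tested. DEGs passed an FDR of 0.05 and changed by more than 1 on the log2 scale. Interactions and time effects were tested in one model of all 18 rats. Standard errors were derived from the fold change and the F statistic. The procedure was tested on simulated data. Summed TPM values are descriptions. Each rat was a separate animal. Total counts ranged from 13297643 to 21130757, and the precision of each value is set by the 3 rats of a group. Intervals and limits from counts cover counting error only. Promoters were matched by symbol to RefSeq (GRCr8) in Python 3.11.15, and coordinates of the 2 builds were kept apart.

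The members and gene lists were chosen with earlier results of these data known. Named genes were those called as DEGs at any time point, with an interaction, or called over time, and the 2 most abundant of each class. The other genes passing the FDR and the *Sult1c* neighbours in the closing section were named after their values were seen. Alternatives were DESeq2 1.42.0, library size only, no filter, at least 10 counts in every rat, a single fit of the 18 rats, a block for the replicate number, the FDR by itself, each rat left out, and family sums without their most abundant member.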

Additional observations from a re-analysis of the deposited data

Results flagged for a closer look

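The response of *Gsta4* to MWCNT differed between time points. The log2 fold change at Year 2 minus that at Year 0.5 was -1.0 ± 0.17 (SE, interaction term in the model of 18 rats, edgeR quasi-likelihood test, FDR = 0.011). It was flagged because the difference itself passed the test. The difference of *Ugt1a6* passed as well (0.66 ± 0.15, FDR = 0.044), but *Ugt1a6* did not pass the test over all 3 time points (FDR = 0.0833). Levels in control rats did not separate the years (154.9, 146 and 153 TPM on average at Years 0.5, 1 and 2), whereas MWCNT-treated rats were at 86.6, 82.7 and 40.5 TPM. The ciliated cell markers of the 3 MWCNT-treated rats summed to 397 to 546 TPM at Year 0.5 and 235 to 374 TPM at Year 2, and the macrophage markers to 1820 to 2238 and 2945 to 3368 TPM. Endothelial markers summed to 1133 to 1585 and 750 to 1035 TPM, alveolar type 1 markers to 3535 to 4371 and 2709 to 3039 TPM, alveolar type 2 markers to 56892 to 59234 and 51419 to 55626 TPM, club cell markers to 12276 to 16093 and 10901 to 11712 TPM, and fibroblast markers to 641.4 to 666.7 and 460.3 to 528.7 TPM. The adipocyte list, of which only *Fabp4* and *Cfd* rose, summed to 281.8 to 367 and 734.7 to 802.8 TPM. These sums follow their most abundant genes, such as *Tppp3* for ciliated, *Lgals3* for macrophage and *Scgb1a1* for club cell markers. *Tppp3* was at 363 to 495 TPM at Year 0.5 and 205 to 332 TPM at Year 2. Of the other ciliated cell markers, *Dnah5* did not overlap between these years, whereas *Dnai1*, *Tekt1*, *Rsph1* and *Ccdc39* did. The part of any of these lists in the difference of *Gsta4* was not tested.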

How the results depend on the processing

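For the 20 genes that met the naming rule or passed the FDR in any year, 752 alternative values were computed and none changed sign while past the threshold. Of these, 679 kept their side of an FDR of 0.05, 59 no longer passed and 14 newly passed. By the FDR alone, 17, 13 and 16 transferases were called at Years 0.5, 1 and 2, and 4 over time in MWCNT-treated rats. DESeq2 gave 2 genes with an interaction (*Gsta4* and *Ugt1a6*). Leaving out single rats gave 1 to 4, 1 to 2 and 4 to 8 DEGs at Years 0.5, 1 and 2, 0 to 1 genes over time in MWCNT-treated and 0 in control rats, and 1 to 2 genes with an interaction. The upregulated counts by the FDR alone ranged over 5 to 5, 4 to 4 and 4 to 5, and the downregulated counts over 8 to 11, 6 to 9 and 10 to 12. These counts by direction were added after the data were seen.

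Without the most abundant member, the ratio of summed TPM was 0.554, 0.575 and 0.287 for *Gsta* (without *Gsta1*) at Years 0.5, 1 and 2, 0.661 and 0.676 for *Gstt* (without *Gstt2*) at Years 0.5 and 1, and 1.08 and 1.03 for *Mgst* (without *Mgst1*) at Years 1 and 2. For *Gsto* at Year 2 it became 0.671, which is *Gsto2* alone at 1 to 2 TPM, and for *Sult1* it became 1.10 at Year 0.5 and 0.887 at Year 2, from genes that sum to 1 to 2 TPM. No such value was computed for *Gsto* at Year 1, where *Gsto2* was below 1 TPM.

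Scaling by library size only shifted the median of all genes by -0.10, -0.13 and -0.17, and the medians of the transferases to -0.32, -0.37 and -0.51. The counts then were 5 upregulated and 13 downregulated at Year 0.5, 4 and 11 at Year 1, and 5 and 12 at Year 2. The shares of all genes under this scaling are not given, so these counts have no background beside them. Values in the text are on the TMM scale, except TPM.

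The replicate numbers recur in the labels, but deviations of rats with the same number correlated from -0.147 to 0.107 over 9 pairs, so they do not pair the rats. With the number as a block, the DEG counts were 2, 2 and 4 at Years 0.5, 1 and 2, and *Gsta3* at Year 0.5 was not called. At this depth, 19 of the 44 genes did not pass the count filter in any year and could not be tested.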

Other observations

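The *Sult1c* cluster on chromosome 9 (Rnor_6.0) holds neighbours that the symbol rule does not take in, and they were named after their values were seen. RefSeq gives *RGD1562392* as a synonym of *Sult1c2a* and *RGD1559960* as a synonym of *Sult1c2al1*, while *LOC100910526* lies in the same cluster (4807717 to 4834335, plus strand). *LOC100910526* had 1, 0 and 0 counts in control rats of Year 2 and 74, 30 and 30 in MWCNT-treated rats, a ratio of 119 per library total with an exact 95% interval of 21 to 4730 for counting error. Its fitted log2 fold change depends on the prior count and is not given, but the test passed (FDR = 0.000265). At Year 1 it had 5, 4 and 0 counts in control rats and 3, 15 and 14 in MWCNT-treated rats, and at Year 0.5 2, 0 and 0 against 5, 0 and 0. *RGD1562392* had 4, 1 and 1 counts in control rats of Year 2 and 38, 14 and 19 in MWCNT-treated rats (log2 fold change 3.51 ± 0.70, FDR = 0.00288). Both entries were highest in the same rat, MWCNT replicate 1 of Year 2.

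Among the other 4 entries of the cluster, *Sult1c2* had 10 counts in control rats and 0 in MWCNT-treated rats of Year 2, *Sult1c3* had 2 and 11 (ratio per library total 4.88, interval 1.06 to 45.3), *RGD1559960* had 16 and 6, and *Sult1c2a*, which lies within *RGD1562392* on the opposite strand, had 55 and 48. Summed over the 6 entries, control and MWCNT-treated rats had 81 and 110 counts at Year 0.5, 117 and 117 at Year 1, and 90 and 270 at Year 2, or ratios per library total of 1.17, 0.958 and 2.66. How reads shared by these copies were divided is not given in the sources used here. Names are those of the deposited table, *LOC100910526* was not matched to a RefSeq symbol, and how the names correspond to these copies in other annotations was not resolved.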
